A study of Mus musculus with 12 samples.

Results

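Freshly isolated muscle satellite cells are meant to be free of the other cells that live in muscle, and RNA of those cells can be followed through genes that they use heavily. The genes described here are 43 markers of 8 such cell types, taken from 55385 genes counted: 10 of endothelium, 7 of fibro-adipogenic cells, 8 of leukocytes, 5 of mural cells (pericytes and smooth muscle), 6 of myofibres, 2 of Schwann cells, 3 of tendon and 2 of red blood cells. They were found by gene symbol, all 43 in both count tables. The list was drawn up with earlier results of these data known. The 12 libraries were made from satellite cells of the hindlimbs of C57BL/6J mice, with 3 libraries in each of 4 groups. Female Hetz libraries (Hetz164, Hetz165, Hetz181) and male Hetz libraries (Hetz204, Hetz245, Hetz249) carry the genotype label Keap1 heterogeneous, and female KO-labelled (KO166, KO178, KO188) and male KO-labelled libraries (KO240, KO247, KO255) the label Keap1 knockout. The series asks whether Keap1, which holds down the transcription factor NRF2, acts differently in female and male satellite cells. Age, any sorting gate, the targeting allele and any Cre driver are not given here. Females were counted in a table of their own and males in another, so sex and table cannot be told apart in any comparison across them.

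Satellite cells lie between the myofibre and its basement membrane, beside capillaries whose endothelium is wrapped by pericytes. Fibro-adipogenic progenitors fill the space between fibres and lay down matrix proteoglycans, macrophages and other leukocytes patrol it, Schwann cells sheathe the motor axons, and tenocytes anchor the fibres. In bulk RNA, fewer cells of a type and less RNA per cell cannot be told apart. Nor can a marker's RNA from another cell type be told from its RNA made by satellite cells. Which cells made the RNA of each marker was not tested.

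For some markers the counted level understates the transcript, because per the file headers reads that fit several places were not counted. The alpha-globin genes show this most plainly. Hba-a1 (chromosome 11, bases 32283511 to 32284465, plus strand, GRCm38) and its neighbour Hba-a2 (chromosome 11, bases 32296489 to 32297298, plus strand) have coding sequences of 429 bases that differ at 1 position, with an identity of 99.77% and a longest identical run of 380 bases. Counted from the first base of the start codon, the difference is C381T, with the base of Hba-a1 first. Coding bases 280 to 429 of the GENCODE M21 transcripts are shown 5′ to 3′ with that base in capitals, since a read on either side of it fits both genes.
Hba-a1: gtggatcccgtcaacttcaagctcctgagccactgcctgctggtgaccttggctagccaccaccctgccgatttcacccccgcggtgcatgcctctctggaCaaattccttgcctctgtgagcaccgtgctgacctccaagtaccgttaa
Hba-a2: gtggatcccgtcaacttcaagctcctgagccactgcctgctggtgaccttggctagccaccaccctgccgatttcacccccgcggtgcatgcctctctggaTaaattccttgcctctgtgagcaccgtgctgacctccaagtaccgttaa
In Hba-a1 72.3% of all 50-base windows of the transcript occur in another gene, and in the beta-globin gene Hbb-bs 53.2%. Myh1, Myh2 and Myh4, the fast myosin heavy chains of adult fibres, lie side by side on chromosome 11 (Myh1 at bases 67200052 to 67224575, Myh2 at 67171027 to 67197517, Myh4 at 67238029 to 67260446, all on the plus strand) and share a coding run of 140 bases that starts at coding base 1549 in each. It is shown because a read inside it can be given to none of the 3 genes; all of it is shared, so no base is in capitals.
Myh1, Myh2 and Myh4: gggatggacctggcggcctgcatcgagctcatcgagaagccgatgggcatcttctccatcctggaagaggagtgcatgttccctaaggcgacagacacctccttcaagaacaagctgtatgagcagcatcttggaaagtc
The share of windows found in other genes was 30.5% for Myh1, 24.6% for Myh2 and 18.9% for Myh4, and it was 19.0% for Ly6a and 15.4% for Lyz2, whose partner is Lyz1. Counting also ignored strand, and other gene models cover 15.5% of the exonic bases of Ckm, 15.1% of Csf1r and 11.2% of Egfl7, so that these 3 levels are uncertain too.

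Levels are given in CPM, counts as a share of the library scaled to a common total with TMM factors over the 12 libraries. Ratios between genes are given per kilobase of exon. Level classes, sums over a cell type and its most abundant member rest on CPM without regard to length. Together the 43 markers took 0.104% to 0.183% of all counts in a library. Mean CPM was 100 or more for 3 of them (the matrix proteins Dcn and Dpt and the smooth muscle actin Acta2), between 10 and 100 for 17, between 1 and 10 for 18, and under 1 for 5. Per kilobase, 21 of the 43 had a higher mean level than Pax7 (2.72 CPM per kb), the transcription factor that defines satellite cells. Pax7 was the lowest of the 10 satellite cell markers examined. Of the 43, 0 reached Vcam1 (248 CPM per kb) or Myf5 (653 CPM per kb). Calcr, a receptor of quiescent satellite cells, stood at 34.8 CPM per kb, below Dpt at 138, Acta2 at 108, Acta1 at 62.2 and Dcn at 43.1 CPM per kb.

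**Figure D1:**
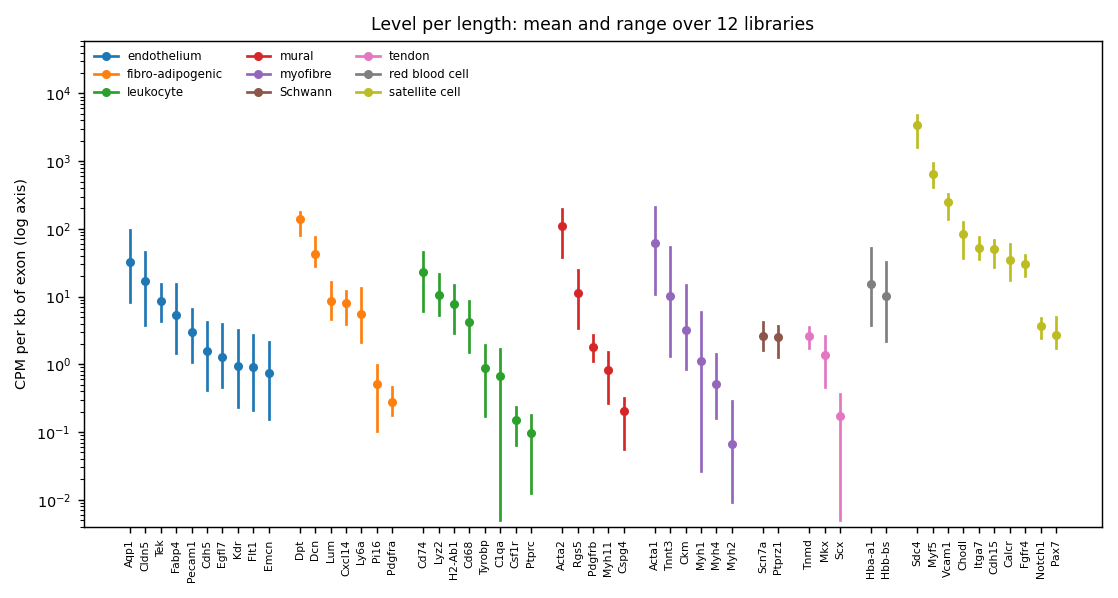
Mean level per kilobase of exon (points) and range over the 12 libraries (lines) on a log axis, for the 43 markers by cell type and for 10 satellite cell markers; C1qa and Scx had a library at 0, and their lines end at the foot of the axis. Within each cell type the level spans more than a factor of 10 except for Schwann and red blood cell markers. Pax7, the lowest of the 10 satellite cell markers, lies below 21 of the 43.

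Levels within a cell type were far from even, and several genes that define a cell type were among the lowest of its markers. Pdgfra, the receptor that defines fibro-adipogenic cells, was at 1.77 to 4.71 CPM, while Dpt exceeded it per kilobase by 195 to 1017 times and Dcn by 97.5 to 382 times across libraries. Ptprc, which encodes the pan-leukocyte antigen CD45, was at 0.227 to 3.25 CPM, and Cd74 exceeded it per kilobase by 141 to 491 times. Myh11, the myosin of smooth muscle, was at 2.02 to 11.7 CPM, with Acta2 at 187 to 745 times its level per kilobase in females and 25.8 to 76.2 times in males. Tek, the angiopoietin receptor of endothelium, exceeded the endothelial cadherin Cdh5 per kilobase by 2.83 times in KO255 and by 11.2 times in Hetz181. At 0 in 1 library each were the complement gene C1qa (in KO247) and the tendon transcription factor Scx (in Hetz245); a count of 0 allows up to 3 counts, which is 0.144 to 0.237 CPM in these libraries. Of further markers of the same cell types, the macrophage gene Aif1 was at 0 in 8 libraries, the T cell gene Cd3e in 6, and the erythroid genes Slc4a1 and Hemgn in 11 of 12 each.

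Total counts ran from 13042039 to 19273245 and genes detected from 19833 to 22602 per library. Keap1 itself was at 9.49, 7.10 and 7.93 CPM in female Hetz and 11.8, 12.8 and 11 CPM in female KO-labelled libraries, apart and higher under the knockout label (1.45-fold, edgeR adjusted p = 0.186), and at 5.34 to 10.04 against 6.38 to 7.85 CPM in males (0.936). Neither was called. The targeting allele is not given here, so the gene count cannot test the genotype labels, and it does not bear them out. Every direction below is therefore that of libraries labelled knockout. Each library has a number of its own in the labels, which do not say whether the numbers are animals, so p-values measure the spread between these samples, which may be technical.

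Within the female table, 5 of the 42 markers tested were lower in KO-labelled than in Hetz libraries at an adjusted p under 0.05 (11.9%), and 0 were higher. In all genes the same rule called 2.27% (0.983% lower, 1.29% higher). The 5 were 3 leukocyte genes, Cd74, H2-Ab1 and Lyz2, and both Schwann markers, Scn7a and Ptprz1. Cd74, Lyz2 and Ptprz1 had been named in an earlier report of these data, so the share of markers called is not independent of it. Beside leukocytes and Schwann cells, the median log2 fold change of a cell type's tested markers ran from -0.47 (fibro-adipogenic) through -0.23 (mural), -0.14 (red blood cell), 0.33 (tendon) and 0.46 (endothelium) to 0.94 (myofibre). DESeq2 called 7, against 5% of all genes, adding the fibro-adipogenic genes Pi16 and Cxcl14, and 16 markers had an unadjusted p under 0.05, against 17.9% of all genes. Groups did not overlap for 10 of the 42 markers (1 higher, 9 lower), against 22.3% of all genes (12.1% higher, 10.1% lower). Within the male libraries, 0 of 39 tested markers were called by edgeR (0.861% of all genes, 0.704% higher and 0.157% lower), with 3 markers at an unadjusted p under 0.05, against 12.4% of all genes. DESeq2 called 1, Ptprz1, against 2.02% of all genes. Male groups did not overlap for 0 markers higher and 2 lower, against 9.39% and 7.8% of all genes. The difference between the female and the male change was called for 0 of 42 markers (0.00677% of all genes; 5 markers at an unadjusted p under 0.05, against 12.4% of all genes; 0 by DESeq2, against 1.2%), with the lowest adjusted p, 0.174 by edgeR, for Scn7a. The female count moved with single libraries. EdgeR called 1 marker lower without Hetz164 (Cd74), 2 without KO188 (Cd74 and Scn7a), 3 without KO166 and 3 without KO178. Without Hetz165 it called 8 lower, adding Tek, Lum and Pi16, and 1 higher, Acta2; without KO178 the endothelial tight junction gene Cldn5 and Myh1 were called higher. Cd74 was called in 6 of 6 fits that left out a female library, but in the fit of all 12 libraries, which estimates the spread over both sexes, Cd74 (edgeR adjusted p = 0.160) and H2-Ab1 lost their calls and 3 remained, Lyz2, Ptprz1 and Scn7a. With library totals as the scaling 3 remained as well, Cd74, H2-Ab1 and Scn7a.

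**Figure D2:**
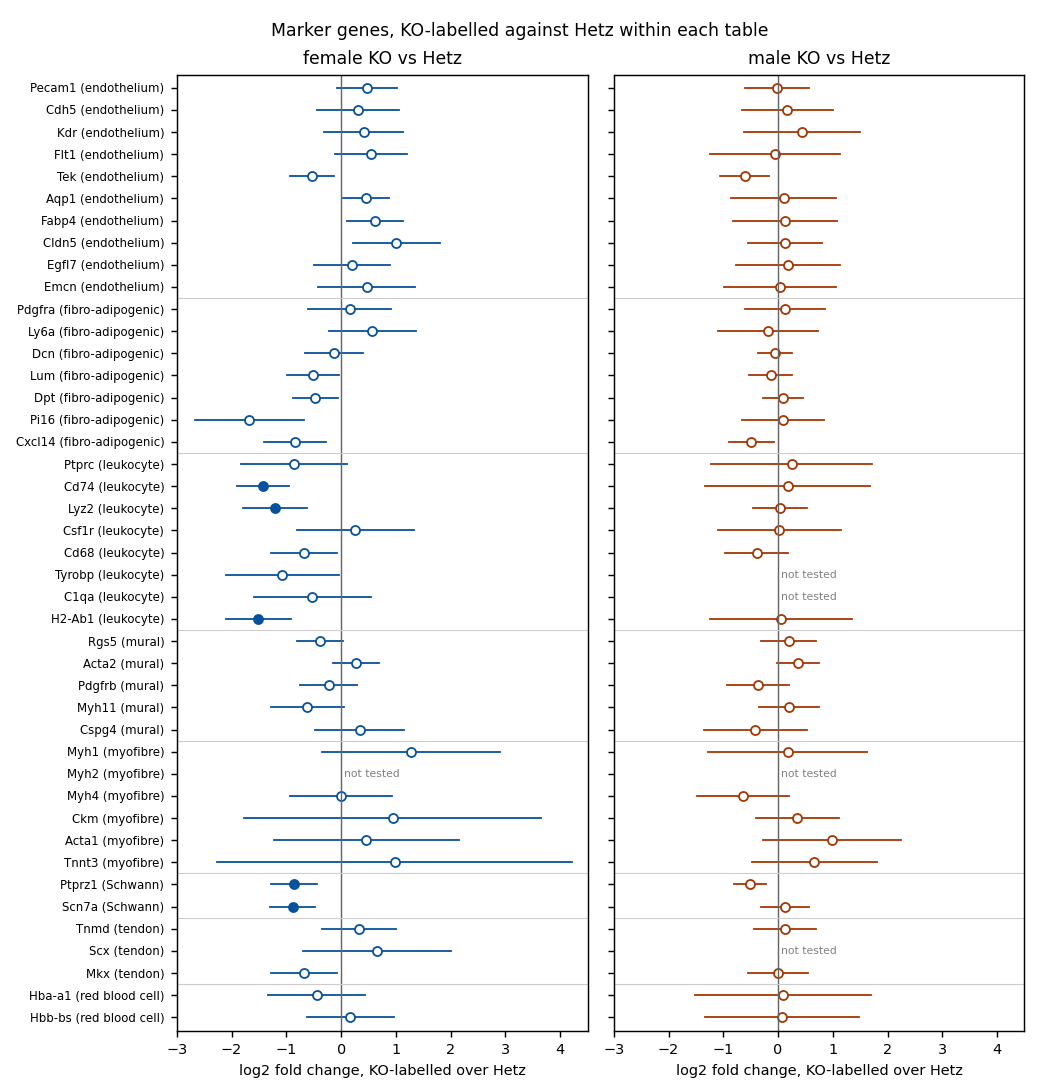
Log2 fold change of KO-labelled over Hetz libraries (points) with 95% intervals (lines) for the 43 markers, in females on the left and in males on the right; filled points passed an adjusted p of 0.05 in edgeR. The 5 filled points are all in females and lie left of 0, and the male intervals of Cd74 and H2-Ab1 are wider than the female ones.

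Of the 8 cell types, leukocyte markers had the lowest median in the female comparison. This median log2 fold change was -0.96 over 8 tested members, against 0.00 over all genes tested. Cd74, the invariant chain that escorts MHC class II molecules, was at 76.4, 51.5 and 56.3 CPM in Hetz164, Hetz165 and Hetz181 and at 30.7, 19.5 and 17.9 CPM in KO166, KO178 and KO188. Every female KO-labelled library lay below every female Hetz library, a fall of 2.70-fold (log2 fold change -1.43 ± 0.22 SE, edgeR adjusted p = 0.00389). H2-Ab1, the beta chain of an MHC class II molecule, was at 37.8, 24.5 and 24.01 CPM in the female Hetz libraries, against 14.6, 7.49 and 8.08 CPM in the KO-labelled group. It too was separated, 2.85-fold lower (-1.51 ± 0.27 SE, edgeR adjusted p = 0.0108). Lyz2, the lysozyme of myeloid cells, was at 28.2, 25.7 and 16.0 CPM against 14.0, 7.25 and 9.09 CPM. The lowest Hetz library, Hetz181, stood just above the highest KO-labelled one, KO166, and the fall was 2.30-fold (-1.20 ± 0.27 SE, edgeR adjusted p = 0.0392).

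The other 5 leukocyte members were scarcer and none passed. Cd68, a lysosomal protein of macrophages, was at 3.68, 3.96 and 4.65 CPM in female Hetz and 2.73, 1.90 and 3.03 CPM in female KO-labelled libraries, apart but with an edgeR adjusted p of 0.230. Tyrobp, the signalling adaptor of myeloid receptors, was at 0.587 to 1.27 against 0.383 to 0.535 CPM, also apart (edgeR adjusted p = 0.267). Ptprc ran from 1.53 to 3.25 against 0.561 to 1.87 CPM, C1qa from 0.725 to 1.12 against 0.357 to 1.12 CPM, and Csf1r, the receptor for macrophage colony-stimulating factor, from 0.373 to 1.26 against 0.674 to 1.19 CPM, and in these 3 the groups overlapped. Summed over the 8 members, the level was 106 to 151 CPM in female Hetz and 39.5 to 65.8 CPM in female KO-labelled libraries. Among 18 further leukocyte markers 0 of 15 tested were called in females by edgeR, against 2.27% of all genes. Of the 15, 5 had an unadjusted p under 0.05 (17.9% of all genes) and 2 were called by DESeq2 (5%). Their median log2 fold change was -0.81, and the groups were apart and lower in 4 (10.1% of all genes). H2-Aa and H2-Eb1, further MHC class II chains, were at 15.1, 15.2 and 7.78 and at 15.8, 13.8 and 6.24 CPM in the female Hetz libraries, with Hetz181 low in both, and in KO-labelled females they were at 5.83 to 7.99 and 7.63 to 8.997 CPM.

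Male leukocyte markers spread widely between libraries of the same genotype. Cd74 was at 57.6, 34.7 and 10.2 CPM in Hetz204, Hetz245 and Hetz249 and at 37.6, 46.5 and 31.0 CPM in KO240, KO247 and KO255. The Hetz libraries spanned the KO-labelled ones, and the log2 fold change was 0.18 ± 0.60 SE (edgeR adjusted p = 0.951). H2-Ab1 showed the same spread, with 34.6, 16.1 and 9.25 CPM in Hetz and 17.8, 31.7 and 12.7 CPM in KO-labelled libraries (0.06 ± 0.54 SE, edgeR adjusted p = 0.984). Hetz204 was the highest male library for 6 of the 8 members and Hetz249 the lowest for 6 of 8, with Cd68 against this order at 8.91 CPM in Hetz249. Without Hetz249 the male log2 fold change was -0.27 for Cd74 (edgeR adjusted p = 0.823) and -0.20 for Lyz2 (0.866), so that both signs turned. Lyz2 was otherwise close to even in males, at 10.8, 13.7 and 7.15 against 10.9, 10.3 and 11.2 CPM (0.04 ± 0.23 SE, edgeR adjusted p = 0.972). The difference of the female and male changes was -1.23 ± 0.38 SE for Lyz2 (edgeR adjusted p = 0.218), -1.61 ± 0.69 SE for Cd74 (0.384) and -1.57 ± 0.68 SE for H2-Ab1 (0.385), so for none of them was a difference between the sexes called.

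Both Schwann markers were lower in female KO-labelled libraries. Scn7a (chromosome 2, bases 66673425 to 66784914), a sodium channel relative found in glia, was at 30.5, 31.2 and 25.2 CPM in female Hetz and 12.1, 16.5 and 18.5 CPM in female KO-labelled libraries. The groups were apart, with a fall of 1.85-fold (-0.89 ± 0.19 SE, edgeR adjusted p = 0.0274). In males it was at 17.5, 13.6 and 14.1 against 16.1, 12.8 and 20.1 CPM, overlapping (0.12 ± 0.20 SE, edgeR adjusted p = 0.868). Ptprz1 (chromosome 6, bases 22875502 to 23052916), a receptor phosphatase of glial cells, was at 35.6, 49.1 and 32.7 CPM against 20.4, 26.1 and 18.2 CPM in females, a fall of 1.82-fold (-0.86 ± 0.20 SE, edgeR adjusted p = 0.0402). In males all 3 KO-labelled libraries were again below all 3 Hetz ones, at 36.4, 31.5 and 35.7 against 49.7, 51.8 and 46.0 CPM. This male difference was 1.42-fold (-0.51 ± 0.14 SE) and was not called by edgeR (adjusted p = 0.128), though it was by DESeq2 (adjusted p = 0.0460).

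Sox10, the glial transcription factor, was at 0.370 to 0.676 CPM in female Hetz and 0.178 to 0.909 CPM in female KO-labelled libraries, and the groups overlapped. Of 11 further Schwann markers 9 were tested in each sex and 0 were called in either by edgeR, against 2.27% and 0.861% of all genes. In females 1 had an unadjusted p under 0.05 (17.9% of all genes) and DESeq2 called 1 (5%). The male counts were 1 (12.4%) and 0 (2.02%). The median log2 fold change of those tested was 0.08 in females and 0.13 in males.

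**Figure D3:**
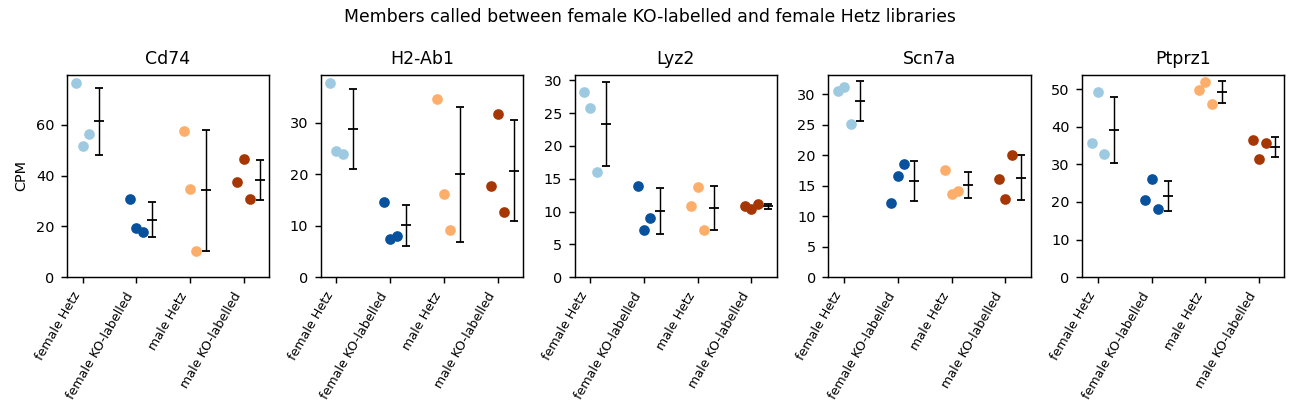
CPM of the 5 markers called between female KO-labelled and Hetz libraries, 1 point per library in all 4 groups, with the mean ± SD of 3 libraries beside each group as a bar. In females the KO-labelled points lie below the Hetz points in every panel; in males only Ptprz1 shows groups that do not overlap.

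Other measures separated the same female groups. Mitochondrial ribosomal RNA took 0.302% to 0.507% of counts in female Hetz and 0.733% to 1.03% in female KO-labelled libraries. Male groups were apart in the other direction, narrowly, at 0.409% to 0.601% in Hetz and 0.226% to 0.407% in KO-labelled libraries. The summed level of 10 satellite cell markers was 11220 to 12820 CPM in female Hetz and 7751 to 9982 CPM in female KO-labelled libraries. In males the sums overlapped, at 14700 to 16810 CPM in Hetz and 16670 to 17900 CPM in KO-labelled libraries. Sdc4, a syndecan, made up 53.0% to 69.1% of the sum across the 12 libraries. Of the 10 markers 4 (Cdh15, Fgfr4, Notch1 and Itga7) had positive log2 fold changes of 0.17 to 0.51 in females. The part of these measures in the leukocyte and Schwann differences was not tested. Of the satellite cell markers 0 of 10 were called by edgeR in either sex, and their median log2 fold change was -0.19 in females and 0.03 in males. In females 3 had an unadjusted p under 0.05 (17.9% of all genes) and DESeq2 called 2 (5%). The male counts were 4 (12.4%) and 0 (2.02%).

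Fibro-adipogenic markers ranged widely per kilobase, from the matrix genes Dpt (138 CPM per kb) and Dcn (43.1) through Lum (8.52), Cxcl14 (7.99) and Ly6a (5.51) to Pi16 (0.509) and Pdgfra (0.281). EdgeR called 0 of 7 between genotypes in either sex. In females 4 had an unadjusted p under 0.05 (17.9% of all genes) and DESeq2 called 2 (5%). The male counts were 1 (12.4%) and 0 (2.02%). Dcn, the proteoglycan decorin, was at 439, 219 and 325 CPM in female Hetz and 287, 235 and 377 CPM in female KO-labelled libraries (-0.13 ± 0.24 SE), and at 165.8 to 234 CPM in all males. Dpt, dermatopontin, which assists collagen assembly, was at 233, 229 and 265 against 148, 237 and 141 CPM in females, where KO178 alone lay among the Hetz libraries (-0.47 ± 0.19 SE, edgeR adjusted p = 0.223). Pi16, a marker of adventitial fibroblasts, was at 3.999, 1.30 and 4.23 against 0.957, 0.654 and 1.35 CPM. Its log2 fold change of -1.68 ± 0.46 SE was the lowest of any marker, but Hetz165 fell within the KO-labelled range and the adjusted p was 0.0828 by edgeR and 0.0176 by DESeq2. Cxcl14, a chemokine, was at 12.3, 13.0 and 21.1 against 7.08, 7.25 and 11.6 CPM in females and 19.99, 18.3 and 21.8 against 13.0, 11.9 and 17.7 CPM in males. It was the only marker besides Ptprz1 whose KO-labelled and Hetz groups were apart, and lower, in both sexes. Of all genes 10.1% were apart and lower in females and 7.8% in males, and the share in both was not computed. Cxcl14 was called in neither sex by edgeR (adjusted p = 0.122 and 0.306).

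Across the tables, 30 of 42 tested markers differed between females and males at an adjusted p under 0.05, 10 higher and 20 lower in females. This background was high: 27.8% of all genes were called, 13.2% higher and 14.6% lower. Groups of 6 did not overlap for 4 markers higher and 13 lower in females, against 4.25% and 5.47% of all genes (9.72% in either direction). DESeq2 called 31 markers, against 30.1% of all genes, and 31 had an unadjusted p under 0.05, against 38.7%. The count lower in females stayed between 19 and 21 in every fit tried, and the count higher between 6 and 10. By cell type the calls ran in 1 direction for endothelium and red blood cells (lower in females) and for myofibres (higher in females), and in both directions for fibro-adipogenic, leukocyte, mural and Schwann markers.

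**Figure D4:**
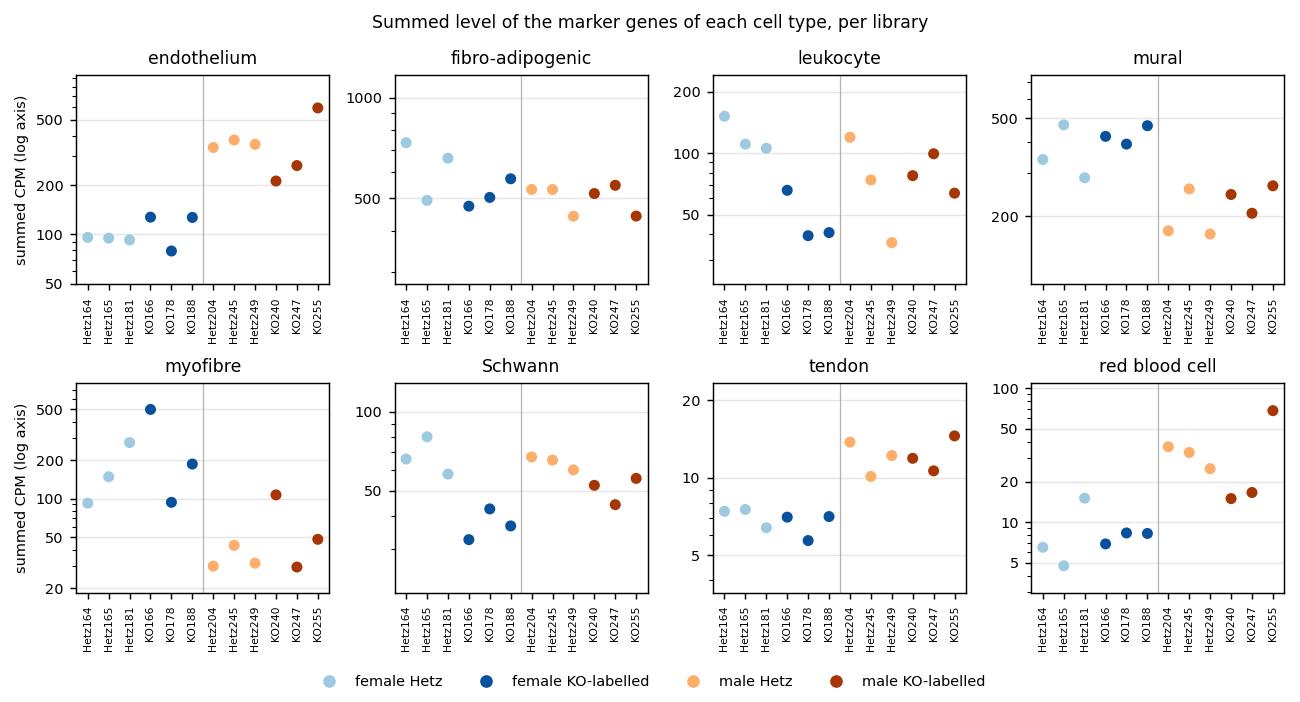
Summed CPM of the markers of each cell type in each library, on log axes, with female libraries left and male libraries right of the line in every panel. Leukocyte sums are split by genotype in females only, and Schwann sums in both sexes (60.03 to 67.25 CPM in male Hetz and 44.24 to 55.72 CPM in male KO-labelled libraries). Endothelial sums are higher in every male library than in any female one, and red blood cell sums overlap between Hetz181 and KO240. KO255 is highest for endothelial and red blood cell sums, and myofibre sums are highest in KO166.

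All 10 endothelial markers were lower in females, with a median log2 difference of -1.87 over the 10. Aqp1, a water channel of capillary endothelium and the most abundant member, was at 23.0, 27.8, 22.1, 36.9, 24.3 and 38.7 CPM in the females from Hetz164 to KO188. In males it was at 126, 157 and 136 CPM in Hetz204, Hetz245 and Hetz249, 82.4 in KO240, 113 in KO247 and 252 in KO255. Every male library lay above every female one, and the female level was 5.07-fold lower (-2.34 ± 0.25 SE, edgeR adjusted p = 3.67e-05). Pecam1, an adhesion molecule of endothelial junctions, averaged 9.82 ± 3.08 CPM in females and 27.0 ± 8.12 CPM in males (SD, n = 6 each; -1.48, edgeR adjusted p = 4.99e-05). The VEGF receptors Kdr and Flt1 were 4.05-fold and 4.59-fold lower (edgeR adjusted p = 0.000260 and 0.000175). Cldn5 was 4.23-fold lower, Fabp4, a fatty acid carrier of capillaries, 3.68-fold, Egfl7 3.62-fold, the sialomucin Emcn 3.51-fold and Cdh5 2.98-fold, with edgeR adjusted p-values between 0.000116 and 0.000814. Groups overlapped only for Cdh5 and Tek.

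Tek stood apart from the other 9 endothelial markers. It was at 35.3, 27.9, 39.9, 29.1, 21.8 and 20.5 CPM in the females from Hetz164 to KO188 and at 53.0, 61.2, 73.1, 34.0, 32.9 and 55.5 CPM in the males from Hetz204 to KO255. Its female level was 1.77-fold lower (-0.82 ± 0.15 SE, edgeR adjusted p = 0.000569), the smallest of the 10 differences, and its highest male library was Hetz249. For the other 9 the highest male library was KO255, at 1.70 to 2.69 times the mean of the other 5 males, and KO255 had Tek at 1.09 times that mean. KO240 was the lowest male library for 8 of the 10. Among female libraries the order differed as well: KO188 was highest for 6 and KO166 for 3 of the 10, while Tek was highest in Hetz181 and lowest in KO188. Of the 10, Tek alone had a negative log2 fold change for KO-labelled against Hetz in females (-0.53 ± 0.18 SE, edgeR adjusted p = 0.165), where the other 9 ran from 0.20 to 1.01 and none was called. Among 11 further endothelial markers tested in females, Sox18 (-0.54), Cyyr1 (-0.08) and Sox17 (-0.03) were negative too, and the others were positive. In males the log2 fold change of Tek was -0.61 ± 0.20 SE (edgeR adjusted p = 0.236), and without KO255 both Tek and Flt1 were called lower.

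**Figure D5:**
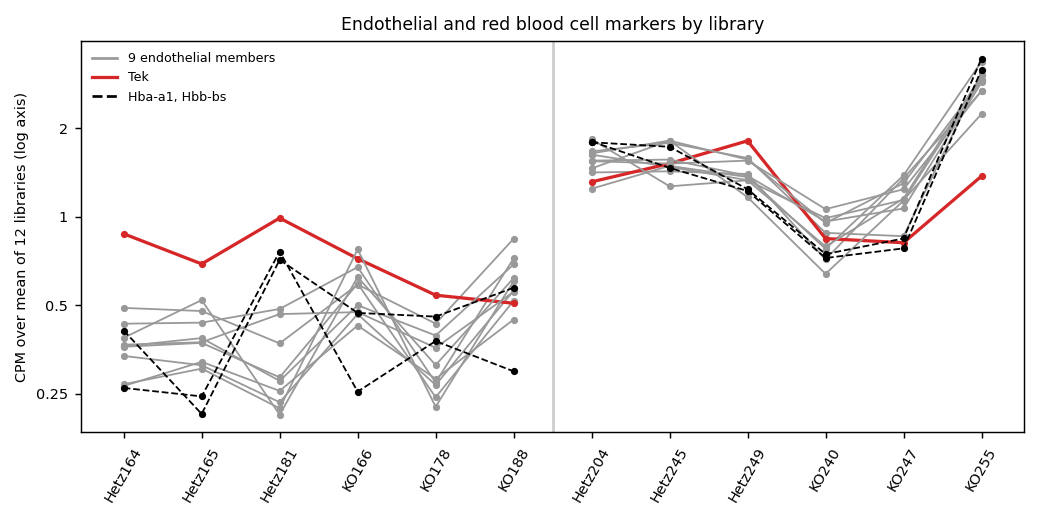
CPM of each endothelial marker (grey, Tek in red) and of both globins (dashed) divided by its mean over the 12 libraries, on a log2-spaced axis; lines join the values of a gene and the gap separates the count tables. KO255 is the highest point for all lines but Tek, and the lowest male point is KO240 or KO247 for every line.

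For both red blood cell markers KO255 was the highest and KO240 the lowest male library, as for most endothelial markers. Hba-a1 was at 22.3, 21.5 and 15.4 CPM in male Hetz and 9.28, 10.5 and 42.97 CPM in male KO-labelled libraries, and Hbb-bs at 14.3, 11.6 and 9.70 against 5.74, 6.19 and 25.1 CPM. KO255 exceeded the mean of the other 5 males by 2.72 and 2.64 times. Females were lower, at 3.04 to 9.47 CPM for Hba-a1 and 1.69 to 5.66 CPM for Hbb-bs, both highest in Hetz181 (log2 difference -2.18 ± 0.44 SE and -1.70 ± 0.39 SE, edgeR adjusted p = 0.00462 and 0.00646). Neither differed by genotype over 6 libraries (edgeR adjusted p between 0.602 and 0.980), but without KO255 edgeR called Hba-a1 and Hbb-bs lower in male KO-labelled libraries together with Flt1, Tek and the progenitor surface gene Ly6a, 5 markers in all. Hba-a2, which shares the printed sequence, was at 0.580 to 1.11 CPM in females and 1.42 to 6.71 CPM in males, again highest in KO255. The ratio of Hba-a1 to Hbb-bs per kilobase was 1.47 to 1.75 in all 6 males and 0.771 to 1.70 in females.

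Myofibre markers went the other way and spread widely between libraries. Their sum was 92.2 to 497 CPM in females and 29.2 to 107 CPM in males. Acta1, the skeletal actin, was at 70.3, 117 and 203 CPM in female Hetz, 323, 74.7 and 140 CPM in female KO-labelled, 16.8, 33.8 and 22.8 CPM in male Hetz and 84.6, 22.5 and 38.1 CPM in male KO-labelled libraries. KO240 overlapped the females, and the log2 difference of 2.15 ± 0.49 SE (edgeR adjusted p = 0.0120) had an adjusted p of 0.0579 without KO166 and KO255, a check chosen after the data were seen. Myh1 was at 6.24, 9.56, 7.51, 37.1, 5.41 and 13.6 CPM in the females from Hetz164 to KO188 and at 0.170 to 1.66 CPM in males. The groups were apart (14.0-fold higher in females, 3.81 ± 0.55 SE, edgeR adjusted p = 0.000535), with male values that reached down to the level of 3 counts. Myh4 was 2.94-fold higher in females (edgeR adjusted p = 0.00148), at 2.40 to 8.67 against 0.981 to 2.30 CPM.

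Ckm, muscle creatine kinase, and Tnnt3, the fast troponin T, were called by a narrow margin (1.83 ± 0.60 SE and 2.42 ± 0.78 SE, edgeR adjusted p = 0.0485 and 0.0496), and each lost its call in 12 of 18 alternatives. Tnnt3 was at 86.2 CPM in KO166, at 5.89 to 36.1 CPM in the other females and at 2.11 to 11.97 CPM in males. KO166 was the highest female library for 5 of 6 myofibre markers, at 2.67 to 5.59 times the mean of the other females for those 5, and Myh4 was highest in Hetz181. KO240 was the highest male for 4 of 6. Myh2 stayed at 0.0664 to 2.06 CPM and was not tested. Between genotypes 0 of 5 tested myofibre markers were called in either sex by edgeR (0 at an unadjusted p under 0.05 and 0 by DESeq2), with female intervals such as -2.27 to 4.22 for Tnnt3 on the log2 scale.

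Mural markers gave opposite signs across the tables. Acta2 was at 304, 424, 240, 381, 361 and 435 CPM in the females from Hetz164 to KO188 and at 83.7, 133, 95.2, 159, 113 and 129 CPM in the males from Hetz204 to KO255. The groups were apart, and females were 3.02-fold higher (1.59 ± 0.15 SE, edgeR adjusted p = 1.23e-06). Rgs5, a G-protein regulator of pericytes, was at 23.0, 21.7, 30.04, 23.3, 15.7 and 18.2 CPM in the same females and 68.4, 101, 55.8, 69.7, 76.2 and 111 CPM in the males. It was apart in the other direction, 3.68-fold lower in females (-1.88 ± 0.16 SE, edgeR adjusted p = 8.54e-07). Myh11 was lower as well, at 2.02 to 4.88 against 6.53 to 11.7 CPM (2.69-fold, edgeR adjusted p = 6.24e-05). Pdgfrb, the growth factor receptor of pericytes, at 8.10 to 15.0 against 6.12 to 12.8 CPM, and the proteoglycan Cspg4, at 1.59 to 3.82 against 0.679 to 2.98 CPM, were not called (edgeR adjusted p = 0.554 and 0.474). Between genotypes 0 of the 5 were called by edgeR in either sex (0 at an unadjusted p under 0.05 and 0 by DESeq2). A further mural marker was: Steap4, a metalloreductase, at 91.3, 172 and 152 CPM in female Hetz and 58.2, 72.6 and 71.7 CPM in female KO-labelled libraries, 2.05-fold lower (-1.04 ± 0.21 SE, edgeR adjusted p = 0.0238), and at 149 to 202 against 194 to 227 CPM in males, where it was not called (0.488).

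Among fibro-adipogenic markers, females were higher in 2 of 7 and lower in 3. Lum, the proteoglycan lumican, was at 18.0 to 40.7 CPM in females and 11.4 to 15.6 CPM in males, without overlap (2.19-fold higher, 1.13 ± 0.15 SE, edgeR adjusted p = 3.29e-05), and Dcn was 1.65-fold higher (edgeR adjusted p = 0.00224). Ly6a (2.29-fold), Pi16 (2.47-fold) and Cxcl14 (1.46-fold) were lower, with overlap (edgeR adjusted p = 0.0105, 0.00476 and 0.0214), and Cxcl14 lost its call in 7 of 18 alternatives. Ly6a had KO255 as its highest male library at 15.9 CPM, against 4.46 to 10.8 CPM in the other males, and its adjusted p was 0.0508 without KO166 and KO255. Dpt and Pdgfra were not called (edgeR adjusted p = 0.0547 and 0.169), and Pdgfra was at 1.97 to 4.71 CPM in females and 1.77 to 3.25 CPM in males.

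The 5 remaining calls across the tables came from 3 cell types. Cd68 was 2.25-fold lower in females (1.90 to 4.65 against 5.51 to 10.8 CPM, edgeR adjusted p = 0.000276), and Lyz2 1.44-fold higher (edgeR adjusted p = 0.0471), a call lost in 10 of 18 alternatives. Ptprz1 was 1.42-fold lower and Scn7a 1.36-fold higher in females (edgeR adjusted p = 0.00458 and 0.0246), and Scn7a lost its call in 5 of 18 alternatives. The Schwann pair, which fell together in female KO-labelled libraries, thus differed in sign here. Mkx, a transcription factor of tendon, was at 1.87 to 4.11 CPM in females and 6.35 to 10.6 CPM in males, 2.65-fold lower (-1.40 ± 0.18 SE, edgeR adjusted p = 3.16e-05). Within females it was apart by genotype, at 3.79, 4.11 and 3.76 CPM in Hetz and 1.87, 2.56 and 2.86 CPM in KO-labelled libraries (edgeR adjusted p = 0.224). Tnmd, a membrane protein of tenocytes, was at 2.33 to 4.79 CPM in all 12 libraries and was called in no comparison, and Scx stayed at or below 0.730 CPM.

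Of 10 satellite cell markers 1 was higher and 4 were lower in females than in males, against 13.2% and 14.6% of all genes, with a median log2 difference of -0.33. With library totals in place of TMM, the median log2 difference of all genes between females and males moved by 0.13, from 0.01 to 0.14, and the share of calls that were higher in females from 47.6% to 69.2%. Under that scaling 10 markers were higher and 19 lower in females, and of the markers called Cxcl14 alone lost its call.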

How the data were processed

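RNA of 12 satellite cell libraries was measured by Smart-Seq2 with Tn5 fragmentation, per the labels' protocols. The authors deposited whole counts for each Ensembl gene. Per the file headers, featureCounts 2.0.0 assigned reads to exons of GRCm38 release 99 without strand, leaving out those that fit several places. Per the file headers they are counts and not estimated counts, and none was rounded. The submitters' processing notes add STAR, Subread, DESeq2 and mm10, whose versions are not given in the sources used here. Symbols came from GENCODE M21 for 55144 of 55385 identifiers.

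Counts were tested within each table with edgeR 4.0.16 in R 4.3.3 (quasi-likelihood F test, robust fit, TMM scaling, filterByExpr at a minimum count of 10, Benjamini-Hochberg over all genes, threshold 0.05). The difference of changes and the comparison of females with males came from a fit of all 12 libraries. DESeq2 1.42.0, other scalings and filters, a pooled fit and leaving out each library were alternatives. The self-test ran on simulated data.

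Members and lists were chosen with earlier results of these data known. The text accounts for all 43 members. It describes in full those called in any comparison, the most abundant of each cell type, and Ptprz1, Cd74 and Lyz2, and it gives values for the 2 highest further markers of each cell type per kilobase and those called between genotypes. Other genes, such as Sox10, were named after their values were seen. Replicate libraries differed beyond sampling noise. Floors cover counting error. Intervals are 95% confidence intervals of the log2 fold change, set from the spread between these libraries. Gene lengths are exonic.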

Additional observations from a re-analysis of the deposited data

How the results depend on the processing

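No paired analysis was possible because each number in the labels belongs to 1 library. Leaving out a library gave 144 to 1479 genes called in females (319 with all) with 0 to 2 markers higher and 1 to 8 lower, 41 to 294 genes called in males (115) with 0 to 5 markers lower, and 0 to 206 genes called for the difference of changes (1). Between females and males, 6 to 10 markers were higher under these fits, and 6 without KO166 and KO255, an alternative chosen after seeing the data. DESeq2 called 702 genes in females, with 7 markers lower, 270 in males, with 1 marker lower, and 177 for the difference. With no filter on low counts edgeR called 1000, 375 and 358 genes. In females 1 marker was then higher (Cldn5) and 7 were lower (Pi16, Cxcl14, Cd74, Lyz2, H2-Ab1, Ptprz1 and Scn7a). In males 1 was lower (Tek), and 3 were lower for the difference (Pi16, Lyz2 and Scn7a). In females 3 markers were lower with library totals and 3 with a fit of all 12 libraries. In males the log2 fold change ran from -0.27 to 0.76 for Cd74 and from -0.20 to 0.27 for Lyz2 when a library was left out, negative without Hetz249. The log2 ratio of summed marker levels, KO-labelled over Hetz, moved without the most abundant member from 0.22 to -0.31 for female mural, from -0.34 to 0.11 for male Schwann and from -0.11 to 0.37 for female tendon markers. Leaving out a library it ran from -0.59 to 0.26 for male endothelium (-0.01 with all), -0.47 to 0.48 for female (-0.17) and -0.996 to 0.42 for male (0.07) red blood cell markers, and -0.29 to 1.11 for female myofibre markers (0.60), negative without KO166. The cause was not tested for any of these. Of 305 checks of summary values, those above included, 253 stayed within 1.5 times or 1 SD of the value reported. Counts of 0 that stayed at 0 were among the 253. Single genes kept direction and call in 570 of 636 checks. With 3 libraries a group, members under 1 CPM rest on few counts.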

Other observations

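Further markers outside the 43 add to the picture of matrix genes. Gsn, an actin-severing protein used as a fibro-adipogenic marker, was at 1596 to 2847 CPM and was the highest further marker of any cell type per kilobase (716 CPM per kb). Col3a1, a fibrillar collagen, was at 1716, 3196 and 1423 CPM in Hetz164, Hetz165 and Hetz181, at 1980 to 2443 CPM in female KO-labelled libraries and at 409 to 1572 CPM in males. Col1a1, the main collagen of tendon and fibrous tissue, chosen for mention after its values were seen, was at 1072 CPM in Hetz165 and at 296 to 395 CPM in the other 5 females. Among myofibre genes Actn3, the fast alpha-actinin, was at 24.7 to 67.4 CPM in males and 16.4 to 51.5 CPM in females, while Myl1, a myosin light chain, was at 2.79 to 20.3 against 11.5 to 90.8 CPM. Over all 92 further markers, edgeR called 1 of 77 tested in females, lower, against 2.27% of all genes. In females 15 had an unadjusted p under 0.05 (17.9% of all genes) and DESeq2 called 5 (5%). In males edgeR called 0 of 72 (0.861%), 6 had an unadjusted p under 0.05 (12.4%) and DESeq2 called 1 (2.02%). Across the sexes, 16 of 82 were higher and 35 lower in females, against 13.2% and 14.6% of all genes.

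The other further markers that led their cell type per kilobase were mostly lower in females. Cd36, a fatty acid transporter of capillaries, was at 6.96 to 21.3 CPM in females and 35.3 to 94.8 CPM in males, highest in KO255 (log2 difference -1.82 ± 0.30 SE, edgeR adjusted p = 0.00120). Eng, a TGF-beta co-receptor of endothelium, was at 40.8 to 72.8 against 48.7 to 80.1 CPM and was not called (adjusted p = 0.588). Vtn, vitronectin, was at 34.7 to 52.8 against 72.9 to 112 CPM (-0.99 ± 0.10 SE, edgeR adjusted p = 2.92e-06). Its KO-labelled libraries also lay below the Hetz ones in both sexes, narrowly in females, without a call by edgeR. The share of all genes apart and lower in both sexes was not computed. Hetz against KO-labelled levels were 50.81 to 52.84 against 34.65 to 50.65 CPM in females and 101.5 to 112.4 against 72.92 to 90.06 CPM in males. Of the tendon genes, the proteoglycan Fmod was at 17.3 to 36.9 against 53.4 to 83.4 CPM and the matrix protein Thbs4 at 15.02 to 37.2 against 28.01 to 41.0 CPM (edgeR adjusted p = 4.57e-06 and 0.00146). Among Schwann genes Mal, a myelin protein, was at 4.43 to 7.37 against 8.85 to 11.97 CPM (edgeR adjusted p = 0.00103). Ngfr, the neurotrophin receptor of glia, was at 10.6, 20.4 and 13.8 CPM in female Hetz and 7.71, 6.06 and 9.99 CPM in female KO-labelled libraries, apart but not called (-0.92 ± 0.27 SE, edgeR adjusted p = 0.101). Hbb-bt, the second adult beta-globin gene, was at 0 to 0.898 CPM in females and 0.213 to 2.52 CPM in males.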
